A study of Bos taurus with 13 samples.

Results

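7 genes of mitochondrial respiration and organisation were followed across a bovine mammary cDNA microarray: ATP5PO, SDHD, OGDH, COA4, IMMT, OMA1 and MRPS35. They were taken by gene symbol from the annotation of the array's spots, and are 7 of the 703 genes with a value. Each was printed as 3 spots of 1 cDNA clone sequence. 13 arrays each set a pair of RNAs against one another, all from cattle. On 8 of them, total RNA of 1 tissue shared the array with RNA of BovMac, a bovine cell line that served as reference. The tissues were ileum, liver, spleen, thymus, adipose, adrenal and lymph tissue, and the mammary gland of a prepubertal Holstein heifer (136 kg). On a further 2, RNA of lactating mammary gland shared the array with RNA of prepubertal gland, from a heifer of 136 kg (lactating array 1) or 227 kg (lactating array 2). The remaining arrays held prepubertal gland (136 kg) against postpubertal gland (310 kg), both from Holstein heifers, as was the prepubertal RNA of the lactating arrays, and the reference against itself, 2 arrays of the latter kind (self-self arrays 1 and 2). The labels give no age, no number of animals behind an RNA and no statement on pooling, and they do not say whether the lactating RNA of both arrays came from 1 cow. The label of self-self array 1 spells the line BovMav, and a keyword of lactating array 2 says post-pubertal where its title and channel say prepubertal, which were followed.

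Mitochondria make most of a cell's ATP by oxidising fuel in the citrate cycle and passing the electrons along complexes of the inner membrane to oxygen, while the proton gradient that results drives ATP synthase. The inner membrane is folded into cristae, whose shape depends on dedicated organising proteins and on proteases that respond to stress. Milk synthesis is a costly process for the secretory cells of the gland, which draw on mitochondria for ATP and for carbon used in synthesis. The 7 genes sample several layers of this machinery. ATP5PO encodes the subunit that links the stalk of ATP synthase to its catalytic head. SDHD encodes a membrane anchor of succinate dehydrogenase, which is at once complex II and an enzyme of the citrate cycle. OGDH encodes the first subunit of the 2-oxoglutarate dehydrogenase complex of that cycle. COA4 is an assembly factor of cytochrome c oxidase, complex IV. IMMT (mitofilin) is the core of the complex that holds cristae junctions, OMA1 is an inner membrane protease that is activated by stress, and MRPS35 is a protein of the small subunit of the mitochondrial ribosome.

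The values are log ratios of the 2 channels, with an exact 0 read as no ratio and each array centred on its median. Neither the base of the logarithm nor the order of the channels is given in the sources used here. 1 log unit would stand for a 2-fold difference if the base is 2 and for a 2.72-fold one if it is e, so values stay in log units. On the lactating arrays the positive side held the alpha-S1 casein gene CSN1S1, at 1.61 on array 1 and 2.56 on array 2, and is called the casein side below. Of 7 milk secretion genes measured, 6 were positive on each array, with CSN1S2 at -0.19 on array 1 and kappa-casein CSN3 at -0.16 on array 2. The casein side is therefore likely, but not certainly, that of the lactating gland. On the tissue arrays the direction was not settled, and with the sign turned every "higher" below becomes "lower". Of the markers that could have settled it, 1 of 3 hepatocyte genes was positive on the liver array (-1.10 to 0.21). Of the lists used, 0 adipocyte, adrenal and T cell genes were measured, so adipose tissue, adrenal tissue and thymus were not checked against their defining genes. Of 4 leukocyte genes, 1 was positive on the array of lymph tissue (-0.35 to 0.48), 1 on that of spleen (-0.47 to 0.19) and 2 on that of thymus (-0.29 to 0.08). Of 3 epithelial genes (ELF5, EPCAM and KRT7), 3 were positive on the ileum array (0.06 to 1.94) and 2 on the mammary array (-0.25 to 0.30), and the stroma genes measured, POSTN and TNC, were negative on the adipose array (-0.31 to -0.24). Adrenal and liver values correlated at -0.32 across 695 genes and at -0.15 across spots. Turning the adrenal array alone kept the range over tissues of each of the 7 genes to 2 decimals, with adrenal tissue then at the upper end for MRPS35. In bulk RNA, fewer cells of a type and less RNA per cell cannot be told apart.

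Spots of 1 clone agreed unequally between arrays. The mean Spearman rho within clones was 0.53 to 0.85 on the tissue arrays and 0.66 and 0.71 on lactating arrays 1 and 2. It was 0.57 and 0.12 on self-self arrays 1 and 2, and 0.06 on the array of prepubertal against postpubertal gland. Spot brightness was not analysed here, and precision is limited by how few arrays there are.

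Across the tissues the 7 genes lay about as far from the reference as all genes did. The median distance from 0 over the 56 gene and tissue values was 0.115 log units, beside 0.121 over all genes, and 23 values were positive and 33 negative. Only 3 of the 56 lay 0.5 units or more from 0, and all 3 were on the ileum array: OGDH at 0.75, COA4 at -0.60 and IMMT at -0.53. On that array 17.1% of all genes lay as far out, 8.14% on the positive and 9% on the negative side, so 3 of 7 genes were read against 17.1%. On the arrays with 0 of the 7 genes as far out the share of all genes was 0.999% for adipose tissue, 0.713% for adrenal tissue and liver, 1.85% for lymph tissue, 2.42% for spleen, 3.84% for thymus and 5.69% for mammary gland, and over the 8 arrays it was 4.17%. At 1 unit or more there were 0 of the 56 values, with a background of 0.962%. On self-self arrays 1 and 2 it was 3.71% and 12.8% at 0.5 units. With 1 array per tissue no difference between tissues was tested, and the SD given is that over 3 spots of 1 array.

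**Figure D1:**
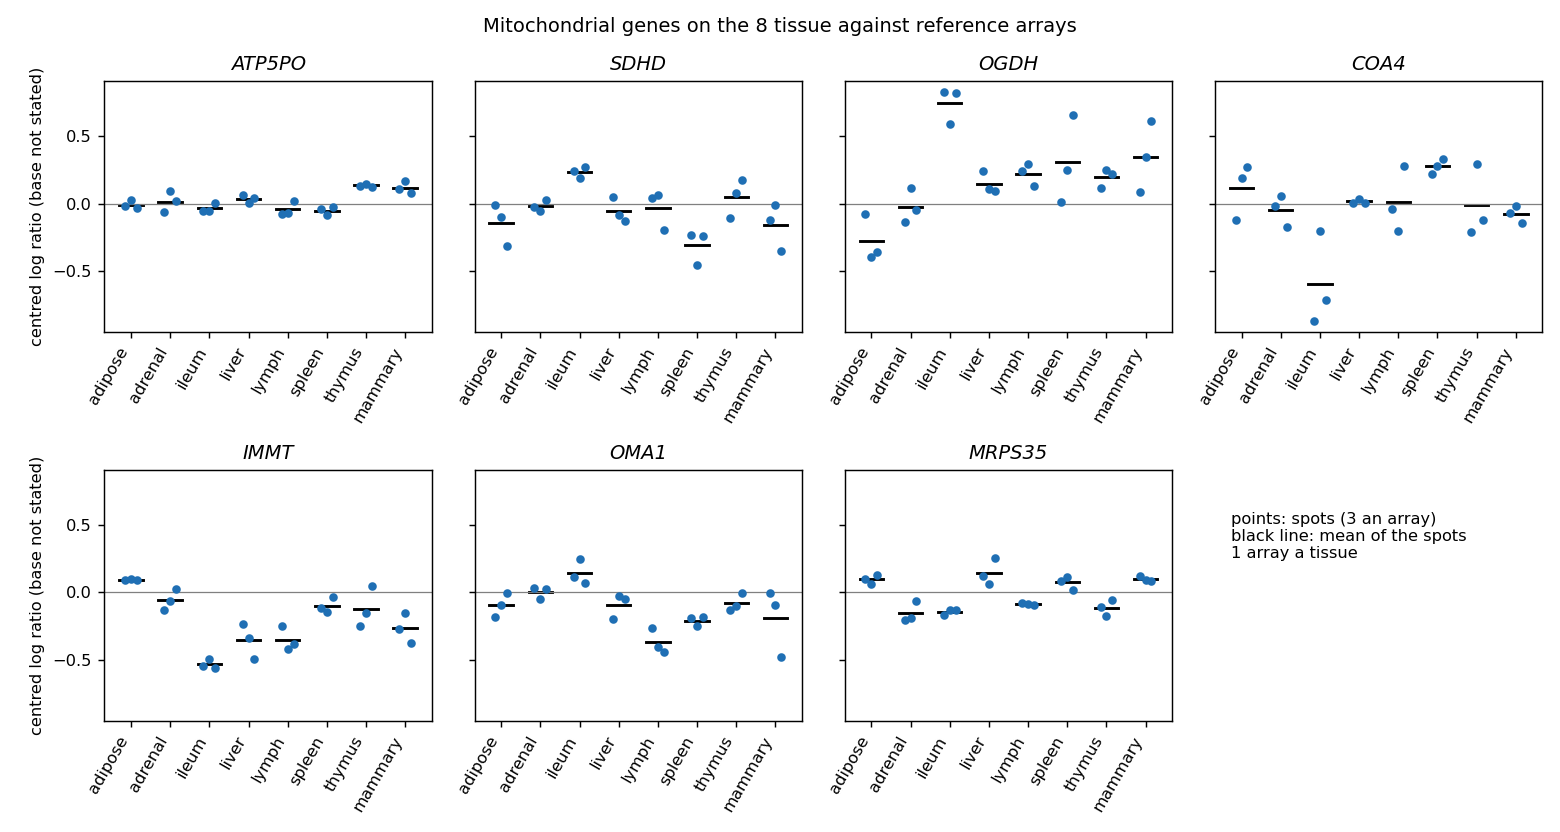
Centred log ratios (vertical axis, base not stated) of the 7 genes on the 8 tissue against reference arrays (horizontal axis), with 1 array per tissue. Points are the 3 spots and the black line is their mean. OGDH at 0.75 and COA4 at -0.60 on the ileum array are the farthest means from 0, and ATP5PO stays between -0.05 and 0.14.

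ATP5PO was the flattest of the 7. Its means were -0.05 in spleen, -0.04 in lymph tissue and ileum, -0.01 in adipose tissue, 0.02 in adrenal tissue, 0.04 in liver, 0.12 in mammary gland and 0.14 in thymus. The range of 0.186 log units was exceeded or matched by 98.8% of the 695 genes with a value in all 8 tissues. Thymus and mammary gland formed an upper pair: the spots of mammary gland (0.08 to 0.17) lay above those of liver (at most 0.07), the only neighbours in this order whose means differed by more than the pooled SD over their spots. The adipose value is the only one of all 56 whose sign turned, to 0.009, on the values without centring.

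SDHD, the anchor of complex II, was lowest in spleen and highest in ileum. Its means ran in the order spleen (-0.31), mammary gland (-0.16), adipose tissue (-0.14), liver (-0.06), lymph tissue (-0.03), adrenal tissue (-0.02), thymus (0.05) and ileum (0.23). The 3 spots of ileum, 0.24, 0.19 and 0.27, lay above all spots of thymus, and those of spleen were -0.23, -0.45 and -0.24. No other neighbours in the order differed by more than the pooled SD over their spots. The range was 0.543 log units, near the median of 0.520 over all genes, and 0.358 without the ileum array.

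OGDH, the citrate cycle enzyme, varied most. Its means were -0.28 in adipose tissue, -0.02 in adrenal tissue, 0.15 in liver, 0.20 in thymus, 0.22 in lymph tissue, 0.31 in spleen, 0.35 in mammary gland and 0.75 in ileum. The range of 1.03 log units was matched by 9.06% of genes, and the range of 0.627 without the ileum array by 16.1%. The adipose spots were -0.08, -0.40 and -0.36 and the ileum spots 0.83, 0.59 and 0.82, so the ends of the order did not overlap. Each end did overlap its neighbour, as mammary spots reached up to 0.61 and adrenal spots down to -0.14. The 5 tissues from liver to mammary gland did not differ between neighbours beyond the SD over spots, which reached 0.33 in spleen (spots from 0.01 to 0.66).

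COA4, the complex IV assembly factor, was lowest in ileum and highest in spleen. In ileum the mean was -0.60 ± 0.35 (SD, 3 spots), from spots at -0.87, -0.20 and -0.72. The other means were -0.08 in mammary gland, -0.05 in adrenal tissue, -0.01 in thymus, 0.01 in lymph tissue, 0.02 in liver, 0.11 in adipose tissue and 0.28 in spleen. All 3 ileum spots lay below those of mammary gland (lowest -0.15), but the highest of them overlapped the spread of lymph tissue (-0.20 to 0.28) and thymus (-0.21 to 0.30). Spleen was the tight upper end, with spots at 0.22, 0.28 and 0.33. COA4 lay about as far from 0 on self-self array 1, at -0.29 with spots at -0.49, -0.21 and -0.18. Without ileum the range fell from 0.874 to 0.357 log units.

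IMMT, the organiser of cristae junctions, was negative in 7 of the 8 tissues. Its means were -0.53 in ileum, -0.35 in liver and lymph tissue, -0.27 in mammary gland, -0.12 in thymus, -0.10 in spleen, -0.06 in adrenal tissue and 0.09 in adipose tissue. The spots were close together at both ends: -0.55, -0.49 and -0.56 in ileum against 0.09, 0.10 and 0.09 in adipose tissue. Adipose tissue lay above adrenal tissue with no overlap of spots. Liver and lymph tissue could not be ordered, as their gap was smaller than the SD over spots (0.13 and 0.09). Its range of 0.627 log units was 6.62 times the root mean square SD over its spots, the highest such ratio of the 7 genes, and it was 0.448 without the ileum array.

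OMA1, the stress-activated protease, was lowest in lymph tissue and highest in ileum. Its means were -0.37 in lymph tissue, -0.21 in spleen, -0.19 in mammary gland, -0.09 in liver and adipose tissue, -0.08 in thymus, 0.003 in adrenal tissue and 0.14 in ileum. The lymph spots, -0.27, -0.40 and -0.44, lay below all spleen spots, and the ileum spots (0.07 to 0.25) lay above all adrenal spots (at most 0.03). Mammary gland had 1 spot at -0.48 beside others at -0.09 and near 0, so its place in the order was not resolved. The range was 0.513 log units, and 0.373 without the ileum array.

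MRPS35, of the mitochondrial ribosome, fell into an upper and a lower set of tissues. Adrenal tissue (-0.15), ileum (-0.15), thymus (-0.11) and lymph tissue (-0.09) were negative. Spleen (0.07), adipose tissue (0.10), mammary gland (0.10) and liver (0.14) were positive. In each of the 8 tissues all 3 spots lay on the same side of 0, and the gap between lymph tissue and spleen, 0.161 log units, exceeded the SD over spots and left no overlap. The range was 0.297 log units, and 90.6% of genes had one as wide. With arrays scaled to the same median absolute deviation it was 0.454, and 68.5% of genes had one as wide.

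Over all 7 genes, 14 of the 49 steps between neighbouring tissues exceeded the pooled SD over spots, and in 7 the spots did not overlap. The same counts are not given here for all genes, so they are not read as a trait of the 7. The range of 4 of the 7 genes was wider than the median over all genes, and that of 2 without the ileum array. On self-self arrays 1 and 2 COA4 lay at -0.29 and 0.05, IMMT at -0.02 and -0.39, and OGDH at -0.50 and 0.72. MRPS35 lay there at -0.04 and 0.17, SDHD at 0.07 and -0.98, OMA1 at -0.004 and -2.22, and ATP5PO at 0.008 and 0.01. For each gene but ATP5PO, most tissue values lay no farther from 0 than the larger of its self-self values.

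Because the arrays differed in spread, each value was also placed among all genes of its own array. This changed which values stood out. IMMT in liver, at -0.35, was matched or exceeded in distance from 0 by 2.85% of genes on the liver array, whereas its larger value in ileum was matched by 15.6%. OGDH in adipose tissue, at -0.28, was matched by 4.42% of genes, OGDH in ileum by 7.71% and OMA1 in lymph tissue by 9.53%. These were the only 4 of the 56 values within the outer 10% of their array. With all arrays scaled to the same median absolute deviation, the values at 0.5 units or more were OGDH in ileum (0.51) and IMMT in liver (-0.55), and those of COA4 and IMMT in ileum no longer reached that distance.

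**Figure D2:**
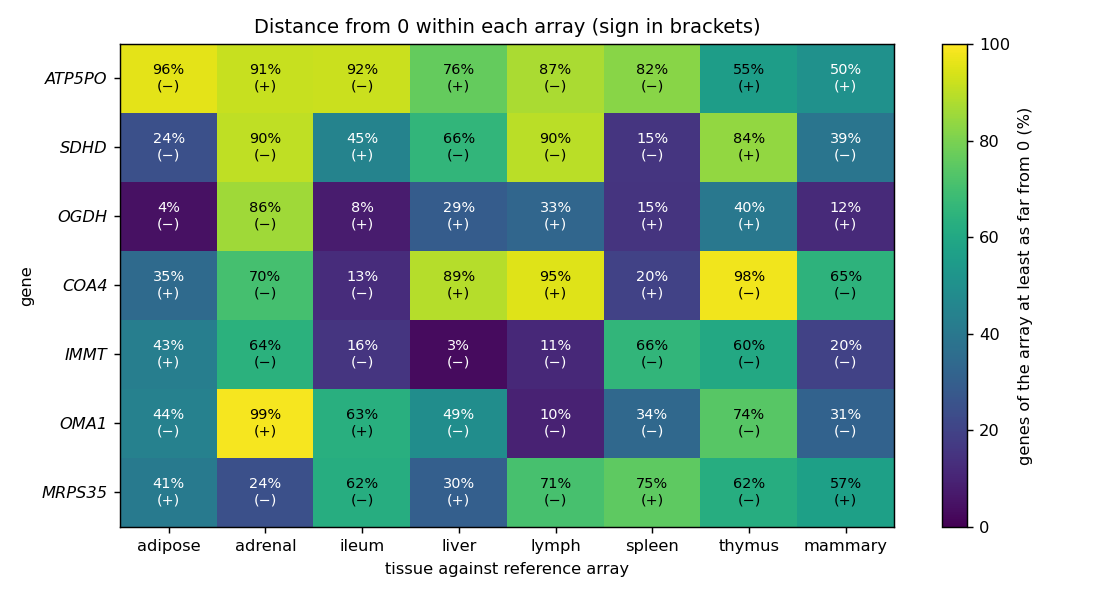
Percentage of genes on each tissue array (horizontal axis) that lay at least as far from 0 as each of the 7 genes (vertical axis), with the sign of the centred log ratio in brackets. Dark cells are values far out on their array. IMMT in liver (2.85%) and OGDH in adipose tissue (4.42%) are the farthest out, and ATP5PO stays at 50.5% or more in every tissue.

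The 7 genes did not share 1 pattern over the tissues. Of 21 pairs, 11 had a positive and 10 a negative Pearson r across the 8 tissues, with a median of 0.01. All tissues share the reference RNA, and the ileum array weighs heavily, since 9 of the 21 signs turned without it. With the adrenal array turned, 3 signs changed, all for pairs of ATP5PO. The closest pair was COA4 and IMMT (r = 0.71, rho = 0.45, r without ileum 0.37), followed by SDHD and OMA1 (r = 0.62, rho = 0.71, r without ileum 0.26). SDHD and COA4 ran opposite to each other (r = -0.88, rho = -0.62, r without ileum -0.74), as did OGDH and IMMT (r = -0.83, rho = -0.64, r without ileum -0.69).

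Among 688 other genes, those most like each member in shape over the 8 tissues were taken by Pearson r, as a description. For OMA1 they were LOC510377 (r = 0.98, 0.97 without ileum) and TBK1 (r = 0.95, 0.91 without ileum). For ATP5PO they were PAEP (r = 0.93, 0.97 without ileum) and RRAS2 (r = 0.92, and 0.92 without ileum), with ranges of 0.186, 0.235 and 0.344 log units for ATP5PO, PAEP and RRAS2. SDHD was followed by SNX6 (r = 0.90) and TRIP4 (r = 0.89), OGDH by ASF1A (r = 0.91) and BOLA (r = 0.87), and MRPS35 by STX7 (r = 0.90) and ISCA1 (r = 0.87). IMMT was followed by KIF22 (r = 0.90, but 0.69 with the adrenal array turned) and DSTN (r = 0.86). COA4 was followed by SLC1A5 (r = 0.93, 0.73 without ileum) and POSTN (r = 0.90, but 0.36 without ileum). 8 points and 688 candidates make high values of r easy to find, so no likeness beyond these arrays is implied.

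Between lactating and prepubertal gland, MRPS35 lay on the opposite side and OGDH on the casein side, and the other 5 genes did not pass the test. The 2 arrays' mean was tested against 0 with limma on all 697 genes with a value on both. The test called 14.8% of these, with 11.3% on the side of casein and 3.44% on the other, against 2 of the 7 genes, 1 on each side. That is 103 genes, 79 and 24 by side. With arrays scaled to the same spread 29 of 30 calls were on the casein side, and on the values without centring 52 of 84. The median of the 7 means was -0.02 log units beside -0.0003 over all genes, and the median distance from 0 was 0.184 beside 0.189. Each gene has 1 residual degree of freedom, and the spread comes mostly from 13.5 prior degrees of freedom pooled over genes. The channel of the lactating RNA was the same on both, so an effect of dye on a clone and one of stage cannot be told apart.

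MRPS35 was on the opposite side in all 6 spots. Its spots were -0.14, -0.53 and -0.53 on array 1 and -0.49, -1.31 and -1.56 on array 2, giving array means of -0.40 and -1.12. The mean was -0.76 ± 0.51 (SD, n = 2), with a 95% interval of the limma fit from -1.14 to -0.38 and limma gave an adjusted p of 0.00839. It was the ninth lowest of all genes. Array 2 carried the larger value by 0.718 log units. With either array left out, no spread between lactating arrays remains. On the self-self arrays the gene lay at -0.04 and 0.17. Set against those arrays, its difference was -0.83, which did not pass (limma, adjusted p = 0.258).

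OGDH passed the same test, but its spots disagreed. On array 1 they were 1.13, 0.74 and -0.40, and on array 2 0.67, 2.60 and -0.91, so the same spot was negative on both arrays while the others were positive. The array means were 0.49 and 0.79, each smaller than the SD over its spots (0.79 and 1.76). The mean was 0.64 ± 0.21 (SD, n = 2), with a 95% interval from 0.31 to 0.97 and limma gave an adjusted p of 0.0105, a test that does not take in the spread over spots. OGDH was also far from 0 where the reference met itself, at -0.50 on self-self array 1 and 0.72 on array 2. The latter came from 2 spots on opposite sides of 0, at 1.70 and -0.26. Set against those arrays, it lay at 0.53 (limma, adjusted p = 0.557). The call was lost on the values without centring (0.54, adjusted p = 0.0628, limma). With either array left out (0.79 without array 1, 0.49 without array 2), no spread between lactating arrays remains.

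ATP5PO was near 0 on array 1 and on the opposite side on array 2. Its spots were -0.04, -0.0008 and 0.08 on array 1, and -0.82, -0.79 and -0.97 on array 2. Both sets were tight, with SDs of 0.06 and 0.09, and did not overlap. The mean of -0.42 ± 0.62 (SD, n = 2) did not pass (adjusted p = 0.148, limma), and its 95% interval ran from -0.83 to -0.02. Array 2 on its own, at -0.86, leaves no spread between lactating arrays. On the self-self arrays the gene lay at 0.008 and 0.01. The prepubertal heifer weighed 136 kg on array 1 and 227 kg on array 2, so animal, weight and array cannot be told apart.

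COA4 had opposite signs on the arrays, at -0.46 ± 0.30 (SD, 3 spots) on array 1 and 0.49 ± 0.71 on array 2. All array 1 spots (-0.17, -0.44 and -0.77) lay below those of array 2 (0.17, 1.30 and -0.005). The mean was 0.01 ± 0.67 (SD, n = 2), with an interval from -0.40 to 0.43 (adjusted p = 0.973, limma).

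The other 3 genes lay near 0. SDHD was at -0.10 and -0.27 on the arrays, a mean of -0.18 ± 0.12 (adjusted p = 0.482, limma), with an interval from -0.51 to 0.14. IMMT was at -0.05 and 0.01, a mean of -0.02 ± 0.04 (adjusted p = 0.951, limma), with an interval from -0.34 to 0.30. OMA1 was at 0.22 and -0.04, a mean of 0.09 ± 0.18 (adjusted p = 0.769, limma), with an interval from -0.24 to 0.42. Each interval reached farther from 0 than 0.189 log units, the median distance over all genes, on 1 side or both.

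**Figure D3:**
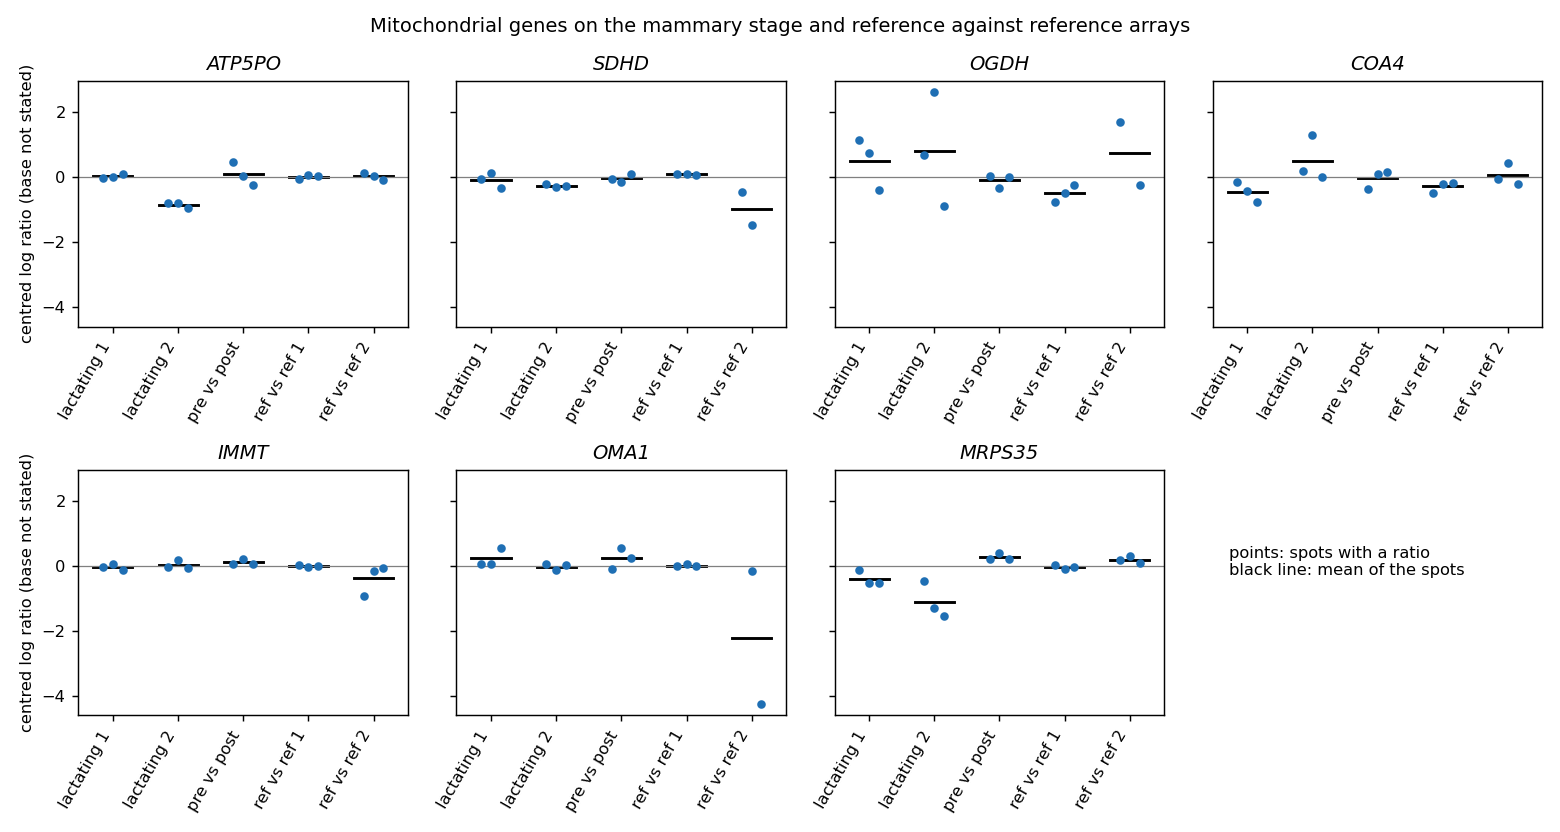
Centred log ratios (vertical axis, base not stated) of the 7 genes on the lactating, prepubertal against postpubertal and self-self arrays (horizontal axis). Points are spots with a ratio and black lines their means. MRPS35 lies below 0 in all spots of both lactating arrays, ATP5PO does so on array 2 only, and the spots of OGDH lie on both sides of 0.

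Where the reference was set against itself, 3 of the 7 genes lay 0.5 units or more from 0 on self-self array 2 (background 12.8%) and 0 on array 1 (3.71%). OMA1 was at -2.22 on array 2, from spots at -0.18 and -4.27 and a spot without a ratio, and SDHD was at -0.98, from -0.48 and -1.47. OGDH was the other, at 0.72, from spots on opposite sides of 0 (1.70 and -0.26) and a spot without a ratio. On array 1 SDHD spots were 0.08, 0.08 and 0.07 and OMA1 spots -0.03, 0.03 and -0.02. The 3 spots of the members at exact 0 over the 13 arrays were all on array 2, and they belonged to SDHD, OGDH and OMA1.

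The annotation also named 19 further genes of a list of mitochondrial genes and related carriers (subunits of respiratory complexes, pyruvate entry, fatty acid oxidation, import, carriers and the mitochondrial ribosome). Between lactating and prepubertal gland 1 of the 19 passed, on the casein side. The test called 14.8% of all genes, and 11.3% on that side, so this count is not read as a trait of the list. The list's median was 0.08 log units beside -0.0003 over all genes. The gene that passed was PDHA1, the catalytic subunit of pyruvate dehydrogenase, at 0.82 and 0.99 on the arrays, a mean of 0.91 ± 0.12 (SD, n = 2, adjusted p = 0.000578, limma). Its spots were 0.83, 0.82 and 0.83 on array 1 and 1.71, 0.54 and 0.71 on array 2, all on the casein side. Set against the self-self arrays it lay at 0.97 and did not pass (adjusted p = 0.126, limma). With either array left out, no spread between lactating arrays remains. PDHX, of the same complex, was at 0.08 and PDK4, the kinase that inhibits it, at 0.14, and neither passed.

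The next highest of the list were VDAC3, an outer membrane channel, at 0.41 ± 0.50, and CPT2, which readies fatty acids for oxidation, at 0.38 ± 0.09, and the lowest were MTRF1L of mitochondrial translation at -0.27 ± 0.51, the peroxisomal carrier SLC25A17 at -0.26 ± 0.10 and ACAT1 of ketone metabolism at -0.25 ± 0.17. These 5 did not pass. Without array 2 MTRF1L turned to 0.09 and VDAC3 lay at 0.06, below CPT2 at 0.44, while without array 1 VDAC3 lay at 0.77. Of 4 genes of the mitochondrial ribosome and its translation on the list 0 passed, against a background of 14.8% of all genes. Their means ran from -0.27 to 0.28, beside MRPS35 at -0.76. Respiratory complex genes NDUFB11 (0.12) and UQCRC2 (0.17) also did not pass.

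**Figure D4:**
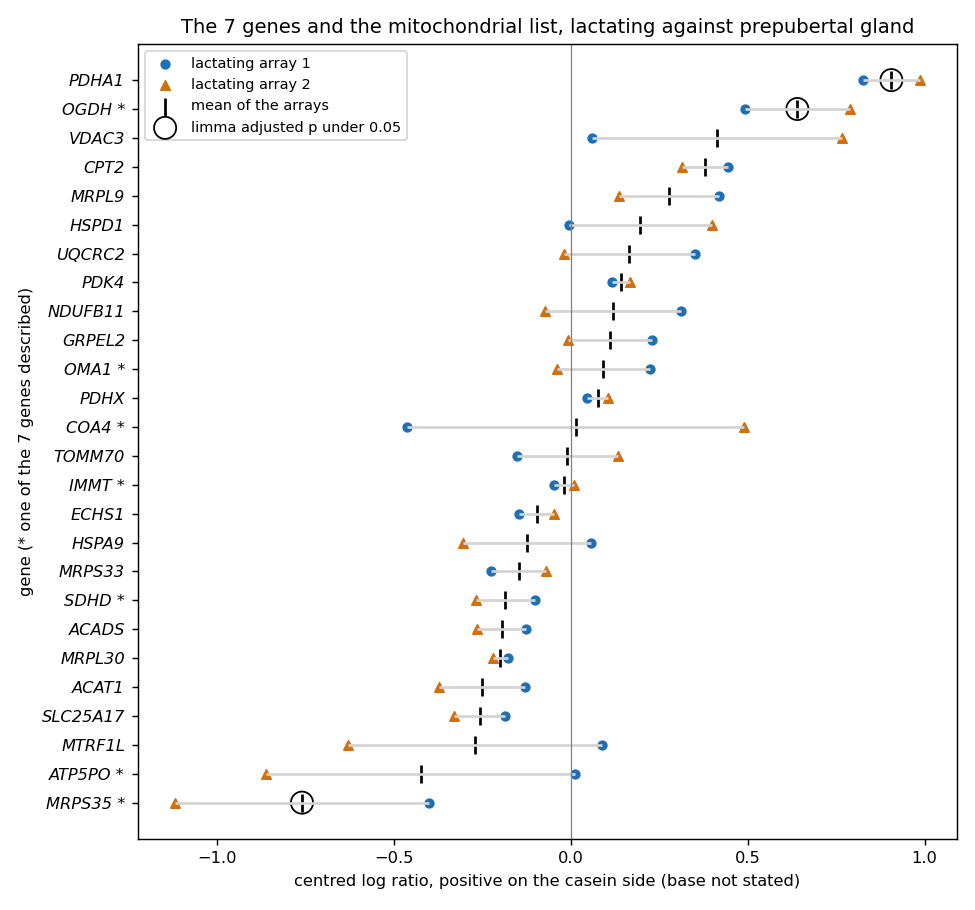
Centred log ratios (horizontal axis, positive on the casein side, base not stated) of the 7 genes, marked with an asterisk, and the 19 further genes of the list (vertical axis) on lactating array 1 (circles) and array 2 (triangles), with the mean as a black bar. Ringed means passed limma's test: PDHA1 at 0.91, OGDH at 0.64 and MRPS35 at -0.76.

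In the tissues 4 of 152 values of the 19 genes lay 0.5 units or more from 0, or 2.63%, against a background of 4.17%. All 4 were on the ileum array, as were those of the 7 genes, so 4 of 19 genes were read there against 17.1% of all genes. On the positive side were the fatty acid oxidation genes ACADS (0.67) and CPT2 (0.63). On the negative side were the chaperonin HSPD1 (-0.75) and the ribosomal protein MRPL30 (-0.73). The median range over tissues was 0.528 log units, beside 0.543 for the 7 genes and 0.520 for all genes.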

How the data were processed

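The authors deposited 1 signed log ratio per spot and array. How they corrected background and normalized, the base of the logarithm and the order of channels: not given in the sources used here. Spots were named by the platform annotation, and all 7 gene identifiers had the same symbol in RefSeq (assembly ARS-UCD2.0). Exact 0 was taken as missing, each array was centred on its median, the spots of an accession were averaged (at least 2 spots, a value on at least 7 arrays), and accessions of a gene were averaged. The members, the lists and the distances of 0.5 and 1 were chosen with earlier results of these data known. Each member was named, as were the 2 genes most like it and the 3 highest and 3 lowest of the mitochondrial list. limma 3.58.1 in R 4.3.3 (lmFit, eBayes, two-sided, Benjamini-Hochberg at 0.05) tested the lactating arrays. A run on simulated data with independent noise does not bear on an effect of dye or on disagreement between spots. Other steps ran in Python 3.11.15 (pandas 2.3.3, scipy 1.17.1, numpy 2.4.6). p-values rest mostly on a spread between the lactating arrays that was pooled over genes, not on each gene's own spread. That spread may be technical. Alternatives changed the centring, exact 0, scale, averaging, filters, spread and arrays.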

Additional observations from a re-analysis of the deposited data

Results flagged for a closer look

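MRPS35 was at 0.27 ± 0.10 (SD, 3 spots) on the array of prepubertal against postpubertal gland, which entered none of the comparisons. The direction of that array was not settled. Its prepubertal gland (136 kg) had the weight given for lactating array 1 and the mammary tissue array, and these may share 1 RNA. MRPS35 was farther from 0 there than on either self-self array (-0.04 and 0.17), with spots at 0.21, 0.39 and 0.21. The mean rho within clones was 0.06 on that array. 10.1% of genes on that array lay at least as far from 0. The other 6 genes did not meet this criterion, for which a value also had to exceed the SD over its spots by 2 times.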

How the results depend on the processing

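The lactating test used ratios within an array, so each lactating RNA was already set against the prepubertal RNA beside it. The labels link no lactating array to a self-self array, so the contrast of these was not paired. The 103 genes called between lactating and prepubertal gland became 32 with exact 0 kept as a ratio, 30 with arrays scaled to the same spread, 13 set against the self-self arrays of the reference (the contrast), 36 with the spread shared with those arrays, and 22 to 48 with 1 lactating array left out. The count of members called, 2, became 0 in the first 4 of these settings, 1 on the values without centring, and 0 to 1 with 1 array left out. At an unadjusted p under 0.05 limma called 2, 2, 1 and 1 members in those 4 settings. Over all genes it called 156 of 706, 171 of 697, 117 of 678 and 144 of 678 there. With none of the settings changed it called 3 members and 201 of 697 genes. The member counts at this threshold are therefore not read as a trait of the members. MRPS35 kept its direction in all 10 alternatives (-1.12 to -0.40) and its call in 5. It lost the call with exact 0 kept (-0.78), scaled arrays (-0.49), the contrast (-0.83), the shared spread (-0.76) and without array 2. OGDH kept its direction in 10 (0.43 to 0.79) and its call in 3. It lost the call without centring (0.54), with exact 0 kept (0.62), scaled arrays (0.43), the contrast (0.53), the shared spread (0.64) and without either array (0.49 to 0.79). Genes near 0 changed sign. COA4 did so without centring (-0.0842), with exact 0 kept (-0.0064), scaled arrays (-0.0485) and the median over spots (-0.14). It also did so without array 2 (-0.46, against 0.49 without array 1). IMMT turned in the contrast (0.19) and without array 1 (0.0094, against -0.0465 without array 2). OMA1 turned without centring (-0.0055) and without array 1 (-0.0380, against 0.22 without array 2), and SDHD in the contrast (0.27). ATP5PO and MTRF1L, with means farther from 0 (-0.42 and -0.27), turned without array 2 (0.0124 and 0.0891, against -0.86 and -0.63 without array 1). A lone lactating array was tested with the spread of the self-self arrays, so it was assumed to vary like them. The cause of these changes was not tested. The count of tissue values at 0.5 units or more was 3 in 5 alternatives and 2 with scaled arrays. Of 56 ranges over tissues 50 moved by less than the SD over spots. The others were those of SDHD, OGDH, COA4, IMMT and OMA1 without the ileum array and of MRPS35 with scaled arrays (0.454). The setting with the adrenal array turned was chosen after the data were seen.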
